A study of Mus musculus with 6 samples.

Results

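The miR-29 family was followed on microarrays of small RNA from 6 C57Bl6 mice, taken from the cortex of the kidney. Its members were chosen by name, as the array probes mmu-miR-29a, mmu-miR-29b and mmu-miR-29c without the star strands, and made up 3 of the 599 mature mouse miRNAs on the array. Of these mice, 3 were untreated controls. The other 3 were kept for 10 days on food with 0.05% sodium and on drinking water with 0.5 g/L captopril, which inhibits angiotensin converting enzyme. Each group had 2 males and 1 female, and the age was 3.5 months, except for the treated female (replicate 1), which was 5 months old. The dye was Cy3 for treated replicate 2 and for control replicates 1 and 3, and Cy5 for control replicate 2 and for treated replicates 1 and 3, so dye and group overlapped unevenly. No genetic alteration is named in the labels, so both groups are described here by strain and treatment alone. The cortex is a mixed tissue, and fewer cells of a type cannot be told apart from less RNA per cell.

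The miR-29 family is best known for repressing extracellular matrix. A miRNA pairs through its seed, bases 2 to 8 from its 5′ end, with sites in messenger RNAs, and the miR-29 seed pairs with transcripts of collagens, elastin and fibrillin. In fibroblasts and in mouse models of kidney fibrosis, transforming growth factor beta lowers miR-29, and the matrix transcripts it restrains rise. In the rat, miR-29b has been tied to renal collagen expression under salt loading. Sodium restriction with captopril is a regimen known to raise renin and to recruit renin-producing cells along the afferent arteriole. No messenger RNA was measured on these arrays, so the targets themselves have no values here.

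The 3 target sequences are shown, as the deposited spot files give them, because the members differ so little that their probes are hard to keep apart. The seed is in capitals.
miR-29a: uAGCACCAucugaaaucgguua
miR-29b: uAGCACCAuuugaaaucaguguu
miR-29c: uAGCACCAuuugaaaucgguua
All 3 share the seed AGCACCA, and no other of the 599 probes targets a miRNA with that seed. Counted from the 5′ end, miR-29a and miR-29c differ by the single change C10U and are identical at 21 of 22 bases. MiR-29c and miR-29b differ by G18A, U21G and A22U, and miR-29b is 1 base longer. MiR-29a and miR-29b match at 18 of the 22 bases compared. Outside the family, the closest target without gaps was miR-136*, which matched miR-29b at 15 bases. Part of the signal of each miR-29 probe can therefore come from its relatives, and how much was not measured. The last 6 bases of miR-29b, AGUGUU at positions 18 to 23, are known from human cells as an element that sends the miRNA to the nucleus. The other two members lack these letters, which occur in 7 of the 599 targets (1.17%).

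The 3 sequences matched RefSeq entries on GRCm38.p6 exactly, and they come from 4 genes in 2 clusters. MiR-29a lies at chr6:31062673-31062694 on the minus strand in Mir29a. MiR-29c lies at chr1:195037600-195037621 on the plus strand in Mir29c. MiR-29b is made from both places, at chr6:31063025-31063047 on the minus strand in Mir29b-1 and at chr1:195037091-195037113 on the plus strand in Mir29b-2. The hairpins of Mir29a and Mir29b-1 lie 275 bases apart, and those of Mir29b-2 and Mir29c 426 bases apart. The miR-29b probe therefore cannot tell the 2 loci apart. The opposite arms of the hairpins do carry that information, and 3 of them were on the array.
miR-29a*: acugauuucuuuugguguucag
miR-29b*: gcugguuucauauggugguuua
miR-29c*: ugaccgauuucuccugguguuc
By exact match, miR-29a* and miR-29b* mark the chromosome 6 hairpins Mir29a and Mir29b-1, and miR-29c* marks Mir29c on chromosome 1.

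A miRNA was called above background where its mean log2 spot intensity exceeded the mean of the 669 empty spots of its sample by more than 3 SD. Between 127 and 229 miRNAs passed in a sample, and the test took the 197 that passed in at least 3 of the 6 samples, whichever their group. Samples differed in brightness. The median empty spot read 219 to 459 in Cy3 and 34.4 to 51.2 in Cy5, and control replicate 2 had the fewest miRNAs above background, 127. The 8 renal tubule miRNAs looked for were all tested, among them miR-192 and miR-10b. Of 3 erythroid miRNAs, miR-451 and miR-486 were above background in all 6 samples and miR-144 in none. Of 5 miRNAs of liver, brain and striated muscle, 1 was tested.

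All 3 members were tested, and miR-29a and miR-29c were above background in all 6 samples. The miR-29a spots stood clear of the empty spots everywhere. Their median was 17.4 times the median empty spot in treated replicate 2, where the contrast was lowest, and 400 times in treated replicate 3, where it was highest. For miR-29c the same ratio ran from 5.79 in control replicate 2 to 128 in treated replicate 3. MiR-29b was nearer to background. Its ratio ran from 1.26 in control replicate 2 to 18.6 in treated replicate 3, and it was above background in 5 of 6 samples, the exception being control replicate 2. The level of miR-29b in that sample is thus an upper limit. In treated replicate 2 the miR-29b spots were 1.97 times the empty spots, the lowest ratio among the samples where it passed.

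The 5 spots of a probe agreed closely within a sample. Pooled over samples, the spot-to-spot SD on the log2 scale was 0.07 for miR-29a, 0.13 for miR-29b and 0.11 for miR-29c. The SD between samples of a group, pooled over both groups, was 0.79, 1.24 and 1.14, which is 11.5, 9.39 and 10.2 times as large. Samples of a group also differed in dye and sex, so this is not a spread between mice alone. That of miR-29b includes control replicate 2, where it was not above background. The variation described below thus lies between samples, not between spots.

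**Figure D1:**
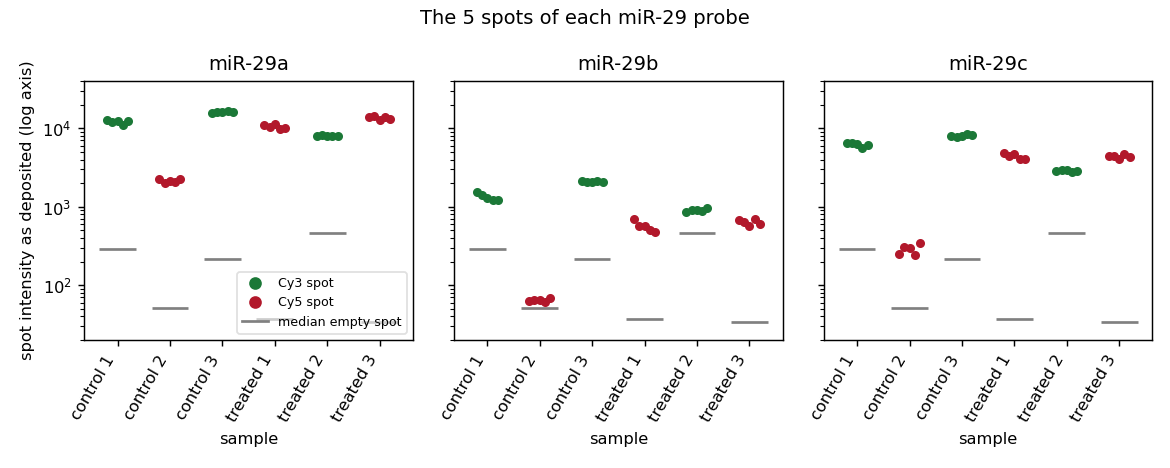
Intensity of each of the 5 spots (points, log axis, as deposited) of the 3 miR-29 probes in the 6 samples, coloured by dye, with the median empty spot of the sample as a gray line. The miR-29b spots of control replicate 2 sit at the empty-spot level, 1.26 times its median.

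MiR-29a, the member with only chromosome 6 as its source, did not separate treated from control mice. Levels are log2 intensities after background correction and quantile normalisation, which gives miRNAs of equal rank in different samples the same value. In control replicates 1, 2 and 3 the level of miR-29a was 12.89, 12.57 and 14.56. In treated replicates 1, 2 and 3 it was 12.94, 12.82 and 13.39. Control replicate 3 was the highest and control replicate 2 the lowest, so all treated samples lay between controls. The group levels were 13.34 ± 1.07 in control and 13.05 ± 0.30 in treated mice (SD, n = 3 each). In the deposited processed table, whose normalisation is unknown, the control samples read 7437, 5588 and 18914 and the treated samples 8126, 6886 and 11677, with the same samples lowest and highest.

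MiR-29b, made from both clusters, had the largest SD of the family in control mice and the smallest in treated mice, the former with control replicate 2 below background. Its level was 9.37, 7.14 and 10.58 in control replicates 1, 2 and 3. It was 9.08, 8.96 and 9.37 in treated replicates 1, 2 and 3. All treated samples again lay between the lowest and the highest control. The group levels were 9.03 ± 1.75 in control, where 1 of 3 samples was not above background, and 9.14 ± 0.21 in treated mice. The deposited values were 562, 83 and 1280 in control and 528, 463 and 654 in treated samples. The lowest of them, 83, is that of control replicate 2.

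MiR-29c, from the chromosome 1 cluster, followed the order of miR-29b. Its level was 11.89, 9.86 and 12.94 in control replicates 1, 2 and 3. It was 11.89 in treated replicate 1, 11.20 in treated replicate 2 and 11.89 in treated replicate 3. Control replicate 1 and treated replicates 1 and 3 share the value because miR-29c ranked 32nd in each of them. The group levels were 11.56 ± 1.57 in control and 11.66 ± 0.40 in treated mice. In the deposited table the control samples read 3471, 839 and 6666, and the treated samples 3373, 2241 and 3705.

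**Figure D2:**
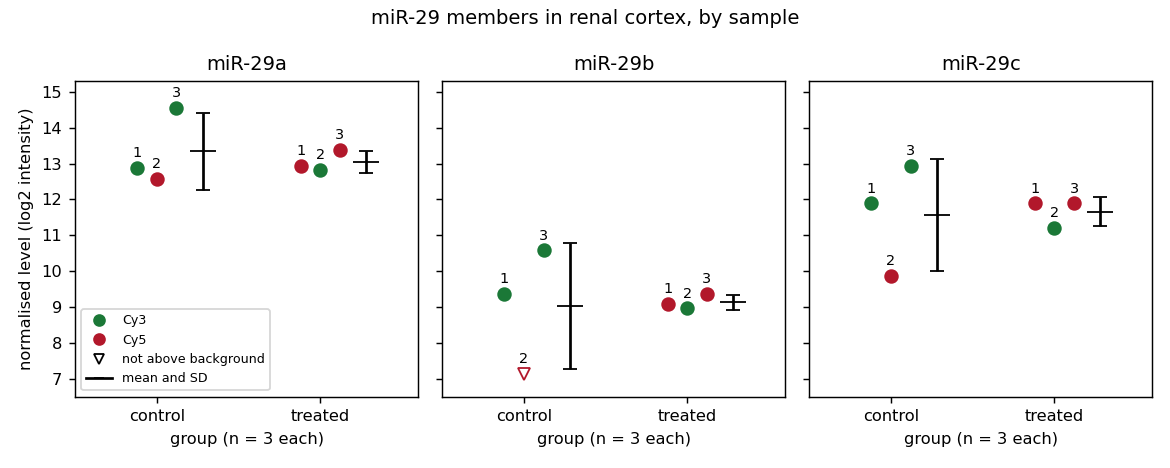
Normalised level (log2 intensity) of each member in each mouse, with the replicate number above the point, the colour giving the dye, and the group mean ± SD (n = 3) beside it. For each member the 3 treated mice lie within the range of the 3 controls, and the open triangle marks miR-29b in control replicate 2, which was not above background.

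The comparison between the groups asks whether sodium restriction with captopril altered the cortical level of these miRNAs. It was tested in limma with a term for dye, two-sided, with Benjamini-Hochberg adjustment over the 197 tested miRNAs. None of the 3 members passed an adjusted p of 0.05, against a background of 0% of all tested miRNAs (0 of 197, and 1 of 197, or 0.508%, at an unadjusted p under 0.05). The treated minus control difference of miR-29a was -0.16 on the log2 scale (SE 0.59, 95% interval -1.63 to 1.32). As a fold this interval runs from 0.323 to 2.50. For miR-29b the difference was 0.54 (SE 0.76, -1.38 to 2.45, or 0.385 to 5.48 as a fold). For miR-29c it was 0.41 (SE 0.77, -1.52 to 2.34, or 0.348 to 5.08 as a fold). The adjusted p was 0.995 for each in limma. Each interval holds both a fall and a rise of 2-fold, so a change of that size was not detectable in this fit. With the replicate number as a further term the intervals narrowed to -0.91 to 0.60 for miR-29a, -0.10 to 1.17 for miR-29b and -0.27 to 1.09 for miR-29c. All 3 then leave out a 2-fold fall, and that of miR-29a a 2-fold rise, but they rest on 1 residual degree of freedom and on the spread pooled over miRNAs. The median difference of the 3 members was 0.41, and that of all 197 tested miRNAs -0.01. Without the dye term the differences were -0.29 for miR-29a, 0.11 for miR-29b and 0.10 for miR-29c, with a median of 0.10. With 75th percentile scaling the median of the 3 members was -0.0051, and that of all 197 tested miRNAs was -0.53. In none of the 3 members did the groups separate, against 4.57% of tested miRNAs (9 of 197) whose groups did not overlap.

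The differences depended on which contrast was read. Within Cy3, treated replicate 2 set against control replicates 1 and 3 gave -0.90 for miR-29a, -1.01 for miR-29b and -1.21 for miR-29c. Within Cy5, treated replicates 1 and 3 set against control replicate 2 gave 0.59, 2.09 and 2.03. Control replicate 2 was the only Cy5 control, and miR-29b was not above background there, so its contrast within Cy5 rests on an upper limit. All 3 members thus lay lower in treated samples in one dye and higher in the other, and the dye-adjusted difference is the average of both. Without control replicate 2 that difference is the Cy3 contrast alone, and without treated replicate 2 it is the Cy5 contrast alone. In the latter, limma gave miR-29b and miR-29c an adjusted p of 0.520, and in both fits 0 of 197 miRNAs passed (12 at an unadjusted p under 0.05 in each).

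Same-numbered samples, which carried opposite dyes, differed by 0.06, 0.25 and -1.17 for miR-29a in pairs 1, 2 and 3. For miR-29b the pairs differed by -0.29, 1.82 and -1.21, and for miR-29c by 0.00, 1.35 and -1.05. No member moved the same way in all 3 pairs, whereas 14.2% of tested miRNAs were higher and 16.2% lower in all 3. The pairs were not matched mice. Pair 1 set the older treated female against a control male, and pair 3 a treated male against the control female. Only pair 2 was of the same sex. Its treated sample was the one in Cy3, and its miR-29b value rests on a control not above background. By sex, the single treated female minus the single control female gave -1.62 for miR-29a, -1.50 for miR-29b and -1.05 for miR-29c. Among the males the treated mean lay 0.38, 0.91 and 0.67 higher, but the 2 treated and 2 control males overlapped. Control replicate 2, where miR-29b was not above background, was the lowest male for each member. For miR-29b and miR-29c no treated male lay above the other control male, control replicate 1 (9.37 and 11.89). The difference between the sexes was not tested, the control female is control replicate 3, and the treated female was also older. The females also differed in dye, Cy5 in the treated and Cy3 in the control mouse, whereas the males of each group carried both dyes.

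**Figure D3:**
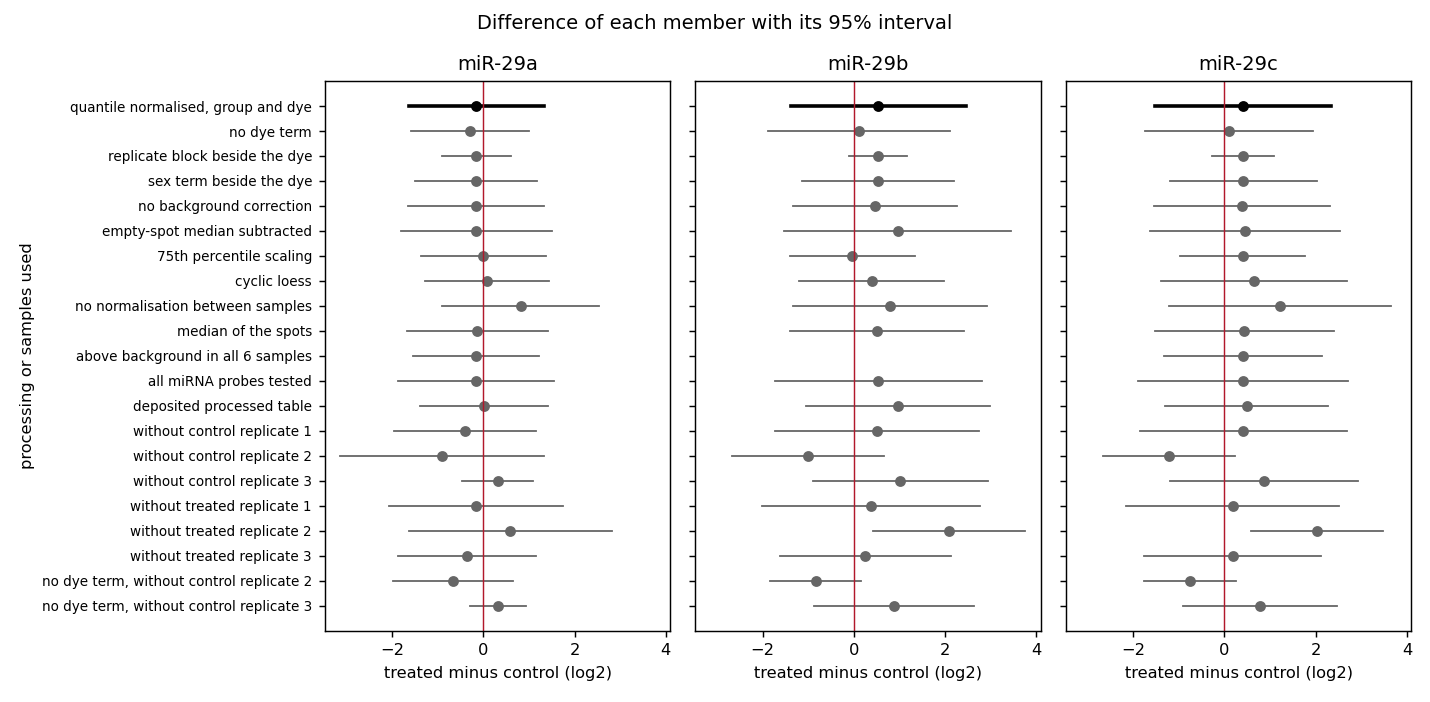
Treated minus control difference (log2) of each member with its 95% interval from limma, for the fit of all 6 samples with dye (black, top) and for each other processing or set of samples (gray). The intervals include 0 except for miR-29b and miR-29c without treated replicate 2, where the points lie at 2.09 and 2.03. Those 2 points rest on control replicate 2 as the only Cy5 control, where miR-29b was not above background.

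The members differed most among the controls. The control SD was 1.07 for miR-29a, 1.75 for miR-29b and 1.57 for miR-29c, and ranked 19th, 5th and 11th of the 197 tested miRNAs. The treated SD was 0.30, 0.21 and 0.40. Across all tested miRNAs the median SD was 0.38 in control and 0.26 in treated samples, and 72.1% had the larger SD in control, so a wider spread of controls was common on these arrays. With 3 samples a group, no test of the spreads was made.

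For miR-29b and miR-29c that spread came from 2 control mice on opposite sides. For miR-29a it came mostly from control replicate 3, at 14.56 against 12.89 and 12.57 in control replicates 1 and 2. In control replicate 2, miR-29b deviated from the mean of the other 5 samples by -2.34 and miR-29c by -2.11 log2 units, the lowest and second lowest deviations of all 197 tested miRNAs in that sample. MiR-29a deviated by -0.75, 184th from the top, though the mean of the other 5 includes control replicate 3 at 14.56. In control replicate 3 the deviations were 1.64 for miR-29a, 1.80 for miR-29b and 1.59 for miR-29c, and ranked 7th, 6th and 8th from the top. In the other 4 samples the 3 members deviated by -0.49 to 0.34. The deposited table placed them much the same: in control replicate 2, miR-29b and miR-29c ranked 196th and 194th from the top, and in control replicate 3 the members ranked 18th, 9th and 12th.

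**Figure D4:**
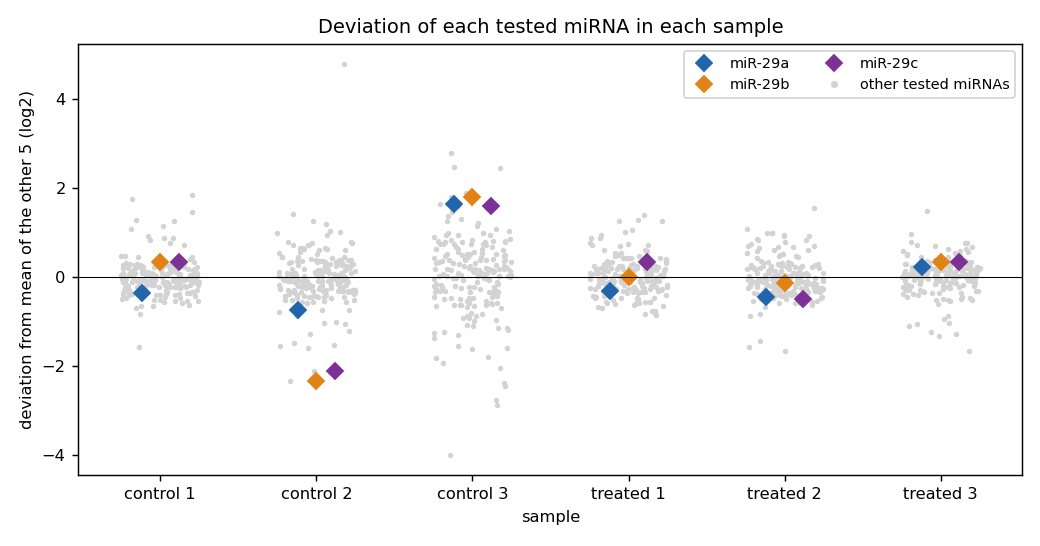
Deviation of every tested miRNA (gray, 197) in each sample from its mean over the other 5 samples, in log2 units, with the miR-29 members as coloured diamonds. MiR-29b and miR-29c sit at the bottom of control replicate 2, at -2.34 and -2.11, and all 3 members sit near the top of control replicate 3.

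Other measures of control replicates 2 and 3 are set beside the miR-29 levels here. Where values of the other controls are given, control replicate 1 comes first and control replicate 2 second. Control replicate 2 had 127 miRNAs above background, the fewest. Treated replicate 2 had 132, and miR-29b and miR-29c deviated there by -0.15 and -0.49. These 2 samples carried different dyes, Cy5 in control replicate 2 and Cy3 in treated replicate 2. In control replicate 3 the mean level of the tested erythroid miRNAs (2 of 3 listed, miR-451 and miR-486) was 7.97, against 9.03 and 9.70 in the other controls and 9.74 to 10.09 in treated samples. The mean of the tested leukocyte miRNAs (3 of 6 listed, with 2 of the rest above background in no sample) was 8.12 there, against 9.73 and 9.81 in the other controls and 8.82 to 9.72 in treated samples. The 5 miRNAs of fibroblasts and vascular smooth muscle averaged 10.40 in control replicate 3, 9.81 and 9.95 in the other controls and 9.85 to 10.02 in treated samples. The 8 renal tubule miRNAs averaged 12.41 in control replicate 3, 12.18 and 12.14 in the other controls and 12.15 to 12.31 in treated samples. That mean joins opposite movements. In control replicate 3, miR-10a, miR-10b and miR-200b deviated from the other samples by -1.79, -0.63 and -0.88, and the rest deviated upward, miR-30a most (1.88). For 2 endothelial miRNAs, both arms of the miR-126 hairpin, the means were 10.46, then 10.95 and 10.23, and 10.18 to 10.76. In control replicate 3, miR-126-3p deviated by 0.31 and miR-126-5p by -0.45, and miR-126-5p was above background in 4 of 6 samples. The part of these cell types and of brightness in the miR-29 levels was not tested. The members are poor in G and C (40.9%, 34.8% and 36.4%, against a median of 47.8% for tested miRNAs). Across the 197 tested miRNAs, which are not independent, GC content and deviation correlated at r = 0.005 in control replicate 2 and 0.16 in control replicate 3.

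The ratio between members within a sample shows whether they changed unequally, and it is given relative to its mean over the 6 samples, since levels of different probes are not comparable. The ratio of miR-29c to miR-29a was 0.59, -1.13 and -0.04 in control replicates 1, 2 and 3 and 0.53, -0.03 and 0.08 in the treated samples, in log2 units. That of miR-29b to miR-29a was 0.59, -1.32 and 0.13 in control and 0.25, 0.25 and 0.09 in treated samples. Control replicate 2 was the lowest in both. The ratio of miR-29c to miR-29b lay between -0.29 and 0.28 in the 5 samples with miR-29b above background. In control replicate 2 it was 0.19, a lower limit. The place of that sample depended on the processing. As a log2 ratio without normalisation between samples it was 1.95 in control replicate 2, again a lower limit, and 2.02 to 2.94 in the other 5. As a log2 ratio of the deposited values it was 3.34 in that sample and 2.28 to 2.68 in the other 5. In an exact permutation test over all 20 assignments of samples, two-sided, no ratio passed: the treated minus control difference was 0.40 for miR-29b to miR-29a (p = 0.8), 0.39 for miR-29c to miR-29a (p = 0.6) and -0.01 for miR-29c to miR-29b (p = 1). Adjusted over the 3 pairs, each p was 1, and the smallest p this design allows is 0.1. The first of these differences turned to -0.38 without normalisation between samples, and the third to 0.50. Without control replicate 2 the 3 differences were -0.16, -0.08 and 0.08.

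The likeness of patterns was measured by Pearson's r of the levels over the 6 samples, as a description. MiR-29b and miR-29c gave r = 0.98 with each other, and no other of the 197 tested miRNAs was closer to either. MiR-29a gave r = 0.82 with miR-29b and 0.80 with miR-29c. Of the tested miRNAs outside the family, 18 were closer to miR-29b than miR-29a was, and 24 were closer to miR-29c. With the dye means removed, the 3 values were 0.99, 0.80 and 0.77. They rest on few samples: without control replicates 2 and 3, r over the remaining 4 samples was 0.75 between miR-29b and miR-29c, 0.60 between miR-29a and miR-29b and 0.49 between miR-29a and miR-29c.

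Outside the family, the miRNAs most like miR-29a were miR-30d (r = 0.996), miR-100 (0.995), miR-141 (0.991), miR-31 (0.988) and miR-30c (0.985). MiR-30c and miR-30d belong to a family abundant in the renal tubule, and miR-141 to the epithelial miR-200 family. The miR-200 family was split in control replicate 3, where miR-29a was highest. MiR-141, miR-200a and miR-429 deviated there by 0.52, 0.80 and 0.41, and miR-200b and miR-200c by -0.88 and -1.59. Among the renal tubule miRNAs looked for, miR-10a and miR-10b deviated there by -1.79 and -0.63, and the rest but miR-200b upward. For miR-29b, after miR-29c, they were miR-27a (0.96), miR-181b (0.94), miR-27b* (0.94) and miR-30b* (0.94). For miR-29c, after miR-29b, they were miR-27a (0.97), miR-322 (0.96), miR-199b* (0.96) and miR-181b (0.95). These values share the same 6 samples. Several of the miRNAs were not above background in all of them, so their r rests partly on background values: miR-31 and miR-199b* passed in 3 samples, miR-141, miR-181b, miR-27b*, miR-30b* and miR-322 in 4, and miR-100 in 5. Without the 2 samples farthest from the member's median, r fell to 0.64 for miR-141 and 0.61 for miR-30c with miR-29a, and to 0.54 for miR-30b* with miR-29b.

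The opposite arms were dim. MiR-29a* was above background in no sample. MiR-29b* was above background in control replicate 1 and treated replicate 1 only, at 1.54 and 2.59 times the empty spots. MiR-29c*, the arm that marks the chromosome 1 hairpin, was above background in control replicate 3 and in treated replicates 1 and 3, at 1.36, 1.44 and 1.86 times the empty spots. It was tested, with levels of 6.68 ± 0.39 in control and 6.69 ± 0.34 in treated mice and a difference of 0.02 (SE 0.34, 95% interval -0.83 to 0.87, adjusted p = 0.995 in limma). Levels this close to background are compressed.

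Other miRNAs tied to matrix and kidney fibrosis did not pass either. Of 25 such miRNAs listed, 24 were on the array and 15 were tested. No member rose and none fell at an adjusted p of 0.05 in limma, as for 0% of all tested miRNAs, 6 differences lay above 0 and 9 below, and the median was -0.08 against -0.01 over all tested. The 3 brightest were miR-30c, with a difference of -0.17 (95% interval -1.47 to 1.12), miR-21, a miRNA that kidney injury induces, with 0.41 (-0.35 to 1.17), and miR-200b, which restrains the epithelial to mesenchymal transition, with 0.22 (-0.59 to 1.04). Each of these intervals includes 0, as those of the miR-29 members do. Unlike in the miR-29 members, every treated sample lay above every control for miR-21, but not for miR-30c or miR-200b. Groups did not overlap, in either direction, in 4.57% of tested miRNAs (9 of 197).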

How the data were processed

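Small RNA of each sample was tailed, tagged and stained with Cy3 or Cy5 by a service provider, per the labels' protocols. The deposited spot tables hold the mean intensity of 3968 spots per sample, 5 for each miRNA, on a linear scale and without background subtraction, per the file headers and the level of the empty spots. The authors' processed intensity per miRNA, deposited as one table, was used as an alternative only; its scale, centring and background treatment are unknown. Its columns had medians of 17 to 19 and correlated with the spot tables of their own samples at Spearman's rho of 0.995 to 0.999.

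In R 4.3.3 with limma 3.58.1, intensities were corrected with normexp (offset 50), log2 values were averaged over 5 spots, and samples were quantile-normalised over 599 probes. Group and dye were fitted with lmFit and eBayes over the 197 tested miRNAs, and the fit was tested on simulated data. Each sample is a single mouse, per the series' design text. The number of arrays limits the precision. Sequences were matched to RefSeq (GRCm38.p6), and no build is named for the arrays. The 3 members, the lists and the alternatives were chosen with earlier results of these data known. Named besides the members were the 5 tested miRNAs of highest correlation with each, the 3 brightest of the fibrosis list and the star strands.

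Replicate numbers recur in both groups, and the labels do not say what they mark. After subtraction of the group means, samples of equal number correlated at 0.447, 0.460 and 0.781 across the tested miRNAs. Same-numbered samples were therefore also compared as pairs, and the number was a term in an alternative fit. The main fit holds group and dye only, so its intervals ignore any such pairing. Some crossed samples also exceeded 0.1: control 1 and treated 2 (0.256), control 2 and treated 1 (0.246).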

Additional observations from a re-analysis of the deposited data

How the results depend on the processing

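Under each of the 20 alternatives 0 miRNAs passed in limma, and the smallest adjusted p was 0.287, with the replicate block. At an unadjusted p under 0.05 in limma, 1 of 197 miRNAs passed with all 6 samples and dye. With the replicate block 15 of 197 did, the most of any fit. In that replicate block fit the differences were the same (-0.16, 0.54 and 0.41), and it changed no call. The sign of miR-29a turned with cyclic loess (0.074), without normalisation (0.82) and with the deposited table (0.0087), and that of miR-29b with 75th percentile scaling (-0.033). These scalings moved the median of all tested miRNAs to 0.29 without normalisation and -0.53 at the 75th percentile. Leaving out 1 sample gave -0.90 to 0.59 for miR-29a, -1.01 to 2.09 for miR-29b and -1.21 to 2.03 for miR-29c, and -1.01 to 2.03 for their median. In those fits miR-29a turned to 0.31 without control replicate 3 and to 0.59 without treated replicate 2. Chosen after seeing the data, the fit with no dye term and without control replicate 2 gave -0.84 for miR-29b, -0.75 for miR-29c and -0.75 for the median, and that without control replicate 3 gave 0.32 for miR-29a. The ratio of miR-29b to miR-29a ran from -0.16 to 0.79 over the samples left out and was -0.38 without normalisation, and that of miR-29c to miR-29a ran from -0.080 to 0.78. The ratio of miR-29c to miR-29b ran from -0.15 to 0.13 over the samples left out and turned to 0.015 without background correction, 0.047 with the median of the spots and 0.50 without normalisation. The cause was not tested. MiR-29b, at background in control replicate 2, has only an upper limit there and no value where a miRNA had to be above background in all 6 samples.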
